A study of Caenorhabditis elegans with 2 samples.

Results

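The cytosolic ribosomal protein genes were examined for binding of GMEB-2 in late embryos of Caenorhabditis elegans. They were taken from the annotation by symbol, without use of any peak: 78 protein-coding genes named rps- or rpl- with a number, and the 5 genes rla-0, rla-1, rla-2, ubl-1 and ubq-2. These 83 genes, of 19973 nuclear protein-coding genes, comprised 32 of the small ribosomal subunit and 51 of the large one. ChIP-seq had been done on whole animals of strain OP622, which carries the unc-119(tm4063) mutation and the integrated transgene wgIs622, with an anti-GFP antibody against GMEB-2 carrying a C-terminal GFP-FLAG tag. The embryos, of mixed sex, were collected 5 h after synchronization by egg bleaching. The 2 samples were biological replicates of this 1 strain and stage, so there was no second condition, and values from an untagged strain or another factor were not analysed here. The tagged protein came from a transgene in a single line, and whole embryos mix all cell types. No promoter for the transgene is named in the labels.

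Ribosomal proteins are built into the small and large subunits in fixed proportions together with ribosomal RNA, and their genes are among the most highly transcribed in growing cells. The small subunit reads the mRNA and the large subunit joins amino acids. GMEB-2 is a worm relative of vertebrate glucocorticoid modulatory element binding proteins, which bind DNA through a SAND domain. In worms many mRNAs receive a spliced leader, so an annotated 5′ end can lie downstream of the place where transcription starts.

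For each gene the strongest summit from 1000 bp upstream to 500 bp downstream of the annotated 5′ end was read in 4 peak lists on build ce11. These were the list passed by irreproducible discovery rate (IDR, a measure of agreement between replicates), with 634 peaks, and 3 relaxed lists of 30000 peaks each, 1 joint list and 1 for each replicate. The signal value is the authors' own value for a peak against a control, and each list has its own scale, so lists are compared by rank, with rank 1 the strongest. Interval by interval, the IDR list matched the top 634 of the joint list. Read counts were not in the lists, so the depth behind a value is unknown.

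The label was checked against the RefSeq product names. A pair of genes went against it. The product of rpl-24.2 is named as a putative ribosome biogenesis protein, RLP24, and that of rpl-42 as a NAM-associated domain protein. Both stayed in the set because the symbol rule takes them, and the main counts are also given without them.

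GMEB-2 peaks of the IDR list stood upstream of 13 of the 83 genes (15.7%), while 2.22% of all protein-coding genes had one. They were 6 genes of the small subunit (rps-20, rps-28, rps-1, rps-26, rps-19 and rps-24) and 7 of the large subunit (rpl-3, rpl-15, rpl-20, rpl-35, rpl-24.2, rpl-14 and rpl-12). Without rpl-24.2 and rpl-42 the count was 12 of 81. Each of the 13 had a peak of its own, and each peak had a summit within 200 bp in both replicates. IDR measures agreement between replicates, but the list held the same intervals as the 634 strongest joint peaks. A place in it thus went with joint rank, and replicate ranks could still differ. The match within 200 bp does not set its peaks apart. It was also found at all 8 of the next genes in the joint list. The list was described by its counts with no enrichment test, since the genes had been chosen with earlier results of these data known.

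Among the large subunit genes, rpl-3 stood highest. It encodes uL3, a protein near the catalytic centre of the subunit. Its peak (chromosome III, 3867460 to 3867702, intergenic) had a joint signal of 436, rank 24 of 30000, with the summit 276 bp upstream of the 5′ end. The signal was 192 in replicate 1 (rank 18) and 240 in replicate 2 (rank 40). No other protein-coding gene had its window at this summit. The next was rpl-15 (eL15), whose peak (IV, 654841 to 655015, intergenic) had joint rank 80 and a signal of 279. It ranked 78 in replicate 1 (signal 114) and 88 in replicate 2 (signal 164), so the order of the top pair was the same in each replicate.

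The genes rpl-20 and rpl-35 followed. The peak of rpl-20 (eL20; IV, 4749999 to 4750143, intergenic) had a joint signal of 232 and rank 120, with signal 68.9 and rank 221 in replicate 1 and signal 167 and rank 85 in replicate 2. The peak of rpl-35, which encodes uL29, a protein at the exit of the peptide tunnel, lay at III, 7854486 to 7854861 (intergenic) with a joint signal of 217 and rank 134. It had signal 61.5 and rank 263 in replicate 1 and signal 156 and rank 94 in replicate 2. Both genes stood higher in replicate 2 than in replicate 1, and rpl-20 ranked ahead of rpl-35 in each list.

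The summit sequences of 6 of the 7 strongest peaks are shown to let the promoters be compared. That of rps-20, the third strongest, is not shown; its stretch of the same length held TACGGT alone of the words below. Each is 101 bases of RefSeq WBcel235, the assembly of ce11, centred on the IDR summit and read 5′ to 3′ on the strand of the gene. No base of them lies in an annotated UTR or coding exon. Capitals mark 8 words of 6 bases searched on both strands. The words ACGCGC with GCGCAC with CGCGCA, which overlap each other, and CGCAAG had been picked from these peaks in earlier work. The word TACGTA is part of the motif known for vertebrate GMEB proteins. The words TACGGT with GTGTAT with GAGCGT were picked after the summit sequences had been read, so their presence in them is no finding. Neighbouring words can run into a single capital stretch.
rpl-3, chrIII:3867528-3867628, plus strand: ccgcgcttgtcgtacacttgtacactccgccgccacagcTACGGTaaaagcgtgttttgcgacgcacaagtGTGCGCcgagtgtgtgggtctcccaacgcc
rpl-15, chrIV:654871-654971, minus strand: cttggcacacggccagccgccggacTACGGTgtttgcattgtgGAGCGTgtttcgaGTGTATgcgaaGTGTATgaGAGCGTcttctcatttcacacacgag
rpl-20, chrIV:4750019-4750119, minus strand: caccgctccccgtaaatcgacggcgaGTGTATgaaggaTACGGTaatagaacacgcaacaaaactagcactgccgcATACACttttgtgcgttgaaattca
rpl-35, chrIII:7854624-7854724, plus strand: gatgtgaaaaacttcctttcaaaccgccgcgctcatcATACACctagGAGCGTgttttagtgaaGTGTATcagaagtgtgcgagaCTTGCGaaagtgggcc
rps-1, chrIII:4475598-4475698, plus strand: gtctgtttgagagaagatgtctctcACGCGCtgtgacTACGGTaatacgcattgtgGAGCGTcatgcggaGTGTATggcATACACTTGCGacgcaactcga
rps-28, chrIV:1659190-1659290, plus strand: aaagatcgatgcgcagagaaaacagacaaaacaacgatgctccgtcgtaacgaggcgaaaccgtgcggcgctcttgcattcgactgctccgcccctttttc

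Around the rpl-15 summit GTGTAT and GAGCGT each stood in 2 places, with TACGGT upstream of them. The rps-1 sequence held TACGGT, then GAGCGT, then GTGTAT, which is the order at rpl-15, and rpl-35 held GAGCGT between a pair of GTGTAT words. The rps-28 sequence held none of the 8 words, although its peak was the sixth strongest of the 13. In windows reaching 100 bp to either side of the summit, TACGGT was in 6 of the 13 peaks (46.2%), GTGTAT in 4 (30.8%) and GAGCGT in 3 (23.1%). Among all 321 IDR peaks at protein-coding promoters these shares were 9.35%, 7.17% and 12.5%. Since the words were picked from the peaks of this family, their shares there support nothing.

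The promoters of the other ribosomal protein genes were read at a fixed distance and not at each gene's own summit, as were those of all protein-coding genes. The windows of the 13 and the 321 peaks were centred on summits, so the 2 kinds of window were placed by unlike rules. In windows of the same length centred 291 bp upstream of the 5′ end, the median summit position, TACGGT was in 21 of the 70 genes without an IDR summit (30.0%) and in 6.01% of all protein-coding genes. GTGTAT was in 1 of the 70 (1.43%) and in 7.64% of all genes, and GAGCGT in 2 of the 70 (2.86%) and in 2.98% of all. Of these 3 words, only TACGGT was more frequent in the 70 promoters than over all genes, and no test of that difference was made. Of the words from earlier work, GCGCAC was in 6 of the 13 peak windows (46.2%), CGCAAG was in 3 (23.1%), ACGCGC was in 2 (15.4%) and CGCGCA was in 0. Among the 321 promoter peaks the shares of these words were 25.2%, 21.8%, 24.0% and 23.7%, in the same order. In all, 8 of 13 windows (61.5%) held at least 1 of the 4 earlier words, beside 55.5% of the 321 promoter peaks, 28.6% of the 70 genes and 11.3% of all genes at the same distance. TACGTA was in 0 of the 13 windows, in 0.935% of the 321 peaks, in 3 of the 70 genes and in 1.75% of all genes. Mean GC content was 42.9% ± 3.68 (SD, n = 13 windows) at the peaks, 43.9% ± 6.64 at the 321 peaks, 38.1% ± 6.19 at the 70 genes and 34.4% ± 6.75 over all genes. The 4 earlier words had been picked from the peaks, so their shares at the peaks support nothing. Mean GC content also differed between the sets of windows, and its part in the shares was not tested. A word match is a description of the sequence and not a binding site.

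**Figure D1:**
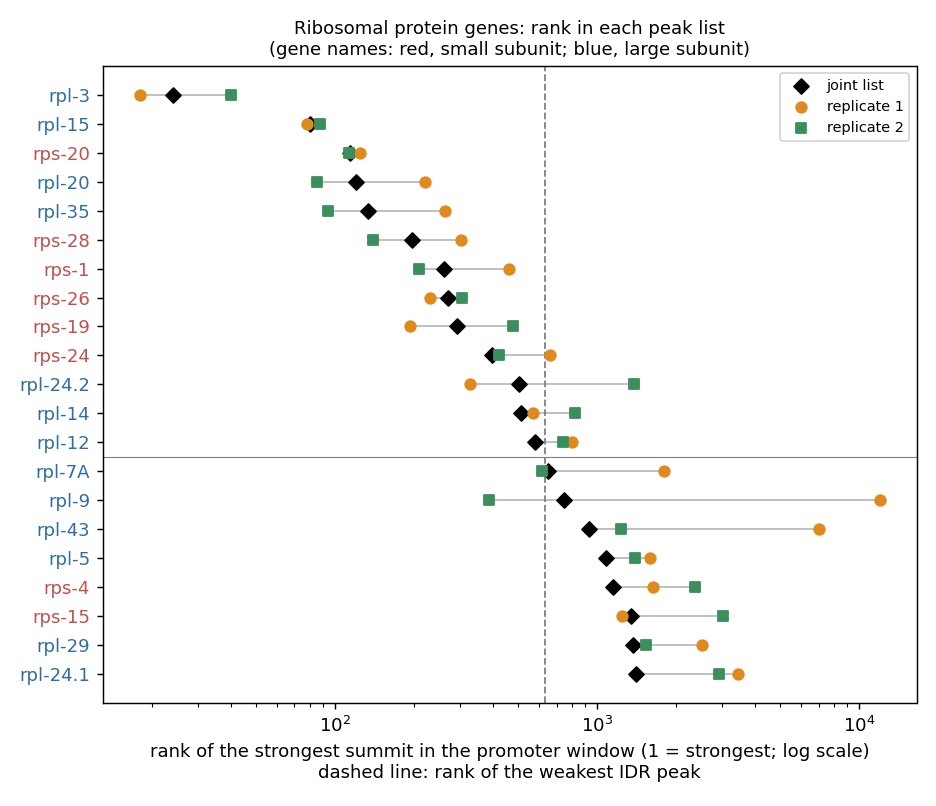
Rank of the strongest summit in the promoter window (x axis, log scale, 1 = strongest) for the 13 ribosomal protein genes with an IDR peak, above the horizontal line, and the 8 next genes of the joint list, below it. Diamonds are the joint list, circles replicate 1 and squares replicate 2. The dashed line is rank 634, and rpl-9 spans rank 386 in replicate 2 to rank 11954 in replicate 1.

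The 6 small subunit genes had joint ranks from 114 to 396. The highest was rps-20 (uS10; I, 14469239 to 14469409, intergenic), with a joint signal of 235, a signal of 88.7 and rank 125 in replicate 1 and a signal of 146 and rank 113 in replicate 2. The peak of rps-28 (eS28; IV, 1659231 to 1659324, intergenic) had a joint signal of 178 and rank 197, with signal 56.8 and rank 302 in replicate 1 and signal 131 and rank 140 in replicate 2. The peak of rps-1, which encodes eS1 at the mRNA exit of the subunit, lay at III, 4475460 to 4475835 (intergenic), with joint rank 260, signal 47.1 and rank 460 in replicate 1 and signal 107 and rank 210 in replicate 2. These 3 genes were all within the 634 strongest peaks of each replicate.

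The other 3 of the small subunit were rps-26, rps-19 and rps-24. The genes rps-26 and rps-19 encode eS26 and eS19, whose human counterparts are mutated in Diamond-Blackfan anaemia. The peak of rps-26 (I, 14759452 to 14759596, intergenic) had a joint signal of 147 and rank 270, with ranks 231 and 306 in replicates 1 and 2. It was the only one of the 13 with a summit within 200 bp of a tRNA or small nucleolar RNA (snoRNA) gene, 118 bp from the snoRNA gene F39B2.14. The peak of rps-19 (I, 9625849 to 9626224, intergenic) had a joint signal of 140, rank 293, and ranks 193 and 476 in replicates 1 and 2. That of rps-24 (eS24; IV, 385132 to 385507, intergenic) had a joint signal of 119 and rank 396, with rank 662 in replicate 1, just past the 634 strongest, and rank 421 in replicate 2.

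The remaining 3 genes of the large subunit were near the end of the IDR list. The peak of rpl-24.2 (I, 9669083 to 9669458) had its summit in an intron of C03D6.1, a gene on the opposite strand. Its joint signal was 102 (rank 505), and it ranked 328 in replicate 1 (signal 53.9) and 1378 in replicate 2 (signal 46.2), the widest spread among the 13. The peak of rpl-14 (eL14; I, 9688697 to 9689072, intergenic) had joint rank 513 and ranks 567 and 821 in the replicates. The peak of rpl-12 (IV, 13240513 to 13240888, intergenic), whose product uL11 sits at the base of the stalk that receives elongation factors, had a joint signal of 96.4 and rank 577. It ranked 804 in replicate 1 and 744 in replicate 2, so it passed the joint list without being among the 634 strongest of either replicate.

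The genes just below the threshold all belonged to the joint list's ranks from 648 to 1405. The first was rpl-7A (eL8), with a joint signal of 90.8 (rank 648, against rank 577 for rpl-12 just inside), rank 1799 in replicate 1 and rank 616 in replicate 2. The second, rpl-9 (uL6), had a joint signal of 85.1 (rank 745). Its signal was 19.2 in replicate 1, at rank 11954, and 74.4 in replicate 2, at rank 386, so 1 replicate placed it well inside the list and the other far below. The gene rpl-43 (eL43) also ranked better in replicate 2, at 1236, than in replicate 1, at 7022 (joint rank 928), but was outside the 634 strongest of both. The genes rpl-5 (uL18; joint rank 1082), rps-4 (eS4; 1153), rps-15 (uS19; 1344) and rpl-29 (1374) ranked from 1245 to 3023 in the replicates. The joint summits of rpl-9, rpl-43 and rpl-5 were nearer to another gene's 5′ end. It was that of lpd-7 (241 bp, against 278 bp for rpl-9), of Y48B6A.1 (166 bp) and of col-38 (379 bp). The summit of rpl-29 was 759 bp upstream, in a coding exon of B0513.4. A single peak of rank 1405 lay between rpl-24.1 and rps-10.

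The ranks of the 2 replicates were compared gene by gene. Each rank was that of the strongest summit anywhere in the gene's window, so the replicates could be read at different summits. At rpl-7 the summit was at 459 bp in replicate 1 and at -284 bp in replicate 2. At rpl-9 it was at -110 and -278 bp. Of the 13 genes, 9 were among the 634 strongest of both replicates, and the ratio of the worse to the better replicate rank had a median of 2.16, with the highest ratio at rpl-24.2 (ranks 328 and 1378). Among the 49 other genes with a summit in both replicate lists the ratio reached 31.0, at rpl-9, with a median of 1.78. A gene that ranked far better in replicate 1 was rpl-22 (eL22), with rank 844 in replicate 1 and rank 14634 in replicate 2. Across the 62 genes in both lists Spearman's rho of the ranks was 0.627, and across all 5043 protein-coding genes in both lists it was 0.403. These values run over genes within the same pair of libraries and are given as descriptions.

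**Figure D2:**
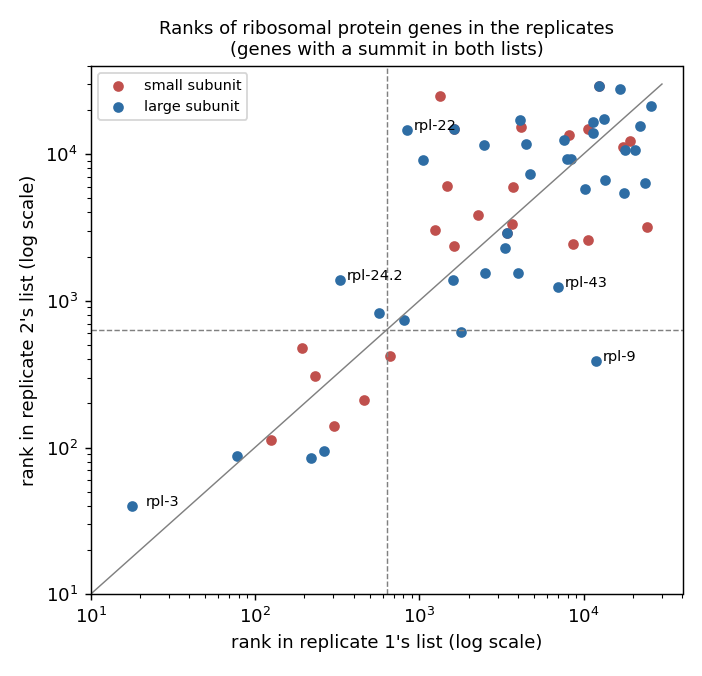
Rank of the strongest summit in replicate 1 (x axis) against replicate 2 (y axis), both on log scales, for the 62 ribosomal protein genes with a summit in both lists. Red points are small subunit and blue points large subunit genes, dashed lines mark rank 634 and the solid line equal ranks. The 9 genes in the lower left corner ranked within 634 in each replicate, while rpl-9 did so in replicate 2 and rpl-24.2 in replicate 1.

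Read one replicate at a time, the set gave similar counts. Of the 83 genes, 11 (13.3%) had a summit among the 634 strongest of replicate 1, where 2.02% of all protein-coding genes had one. In replicate 2 it was 12 (14.5%), beside 2.19% of all. The list of replicate 1 held 11 of the 13 IDR genes, lacking rpl-12 and rps-24. That of replicate 2 held 10 of the 13, lacking rpl-12, rpl-14 and rpl-24.2, and added rpl-7A and rpl-9. Without rpl-24.2 and rpl-42 the counts were 10 and 12 of 81.

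Most of the family had some summit in the relaxed lists, which reach into background by design. In the joint list 75 of the 83 genes (90.4%) had one, and 40.2% of all protein-coding genes did. In replicate 1 it was 71 genes (85.5%, beside 41.2% of all), and in replicate 2 70 genes (84.3%, beside 41.0%). Without rpl-24.2 and rpl-42 the counts were 73, 69 and 69 of 81. A summit in all 3 relaxed lists was found at 61 genes (73.5%), compared with 23.2% of all genes. Among genes with a joint summit the median rank was 5400 for this family and 11651.5 over all protein-coding genes. The share rose with each step down the joint list, from 16 genes at rank 1000 to 24 at rank 2000, 36 at rank 5000 and 52 at rank 10000. Over all genes the shares at these ranks were 3.24%, 5.35%, 10.3% and 17.8%.

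The genes rpl-19, rpl-37, rpl-25.1 and rps-16 had no summit in the window in any list, which makes 4.82% of the family, beside 41.5% of all protein-coding genes. Another 4 had none in the joint list but did in a replicate: rpl-1 (replicate 1, rank 24775), rps-2 (replicate 1, 22136), rps-27 (replicate 1, 11307) and rpl-36.A (ranks 16605 and 27667 in replicates 1 and 2). The genes of the ribosomal stalk, which recruits translation factors, were spread over the lists. The gene rla-2 was at joint rank 5592, near the median of the family, with ranks 4087 and 16946 in replicates 1 and 2. The gene rla-0 was at joint rank 14538, with no summit in replicate 1 and rank 5230 in replicate 2, and rla-1 was at joint rank 25803, with ranks 22154 and 15522. The genes for ribosomal proteins made as fusions with ubiquitin or a ubiquitin-like protein were at joint rank 10594 (ubq-2), 13314 (rps-30) and 15010 (ubl-1). In replicates 1 and 2 ubq-2 was at ranks 17966 and 10688, and ubl-1 at 8585 and 2443. The strongest summit of ubl-1 in replicate 2 stood at -711 bp, away from the joint summit at -79 bp.

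The shares of the subunits with a strong summit kept no single order across ranks and lists. With the IDR list, 6 of 32 small subunit genes (18.8%) and 7 of 51 large subunit genes (13.7%) had a peak. Among the 634 strongest of replicate 1 the shares were 15.6% and 11.8%, and of replicate 2 18.8% and 11.8%. At joint rank 1000 the order turned, with 18.8% of small and 19.6% of large subunit genes, and at rank 2000 it was 28.1% and 29.4%. At rank 2000 the replicates went apart, with 34.4% of small and 25.5% of large subunit genes in replicate 1 but 21.9% and 25.5% in replicate 2. Further down, the small subunit was ahead in the joint list and in both replicates. At rank 5000 the shares were 50% and 39.2% (joint), 50% and 43.1% (replicate 1) and 50% and 31.4% (replicate 2). At rank 10000 they were 68.8% and 58.8%, 56.2% and 54.9%, and 59.4% and 52.9%. At rank 30000 replicate 1 had the large subunit ahead (84.4% and 86.3%). One gene is worth about 3 percentage points of the small subunit, so the gap in the IDR list amounts to very few genes.

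The ranks of the subunits overlapped widely. In the joint list the small subunit genes with a summit had a median rank of 3975 (quartiles 1344 and 8793), and the large subunit genes 6440 (quartiles 1382 and 13412). The medians were 3668 and 5062 in replicate 1 and 3260 and 6512.5 in replicate 2, so the small subunit had the better median in each relaxed list. The gap between the medians was wider in replicate 2 than in replicate 1, and no test was made, since genes are not replicates. In the IDR list the order was the reverse, with a median rank of 265 for the 6 small and 134 for the 7 large subunit genes. The large subunit held both the strongest pair and the weakest 3 of the 13.

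**Figure D3:**
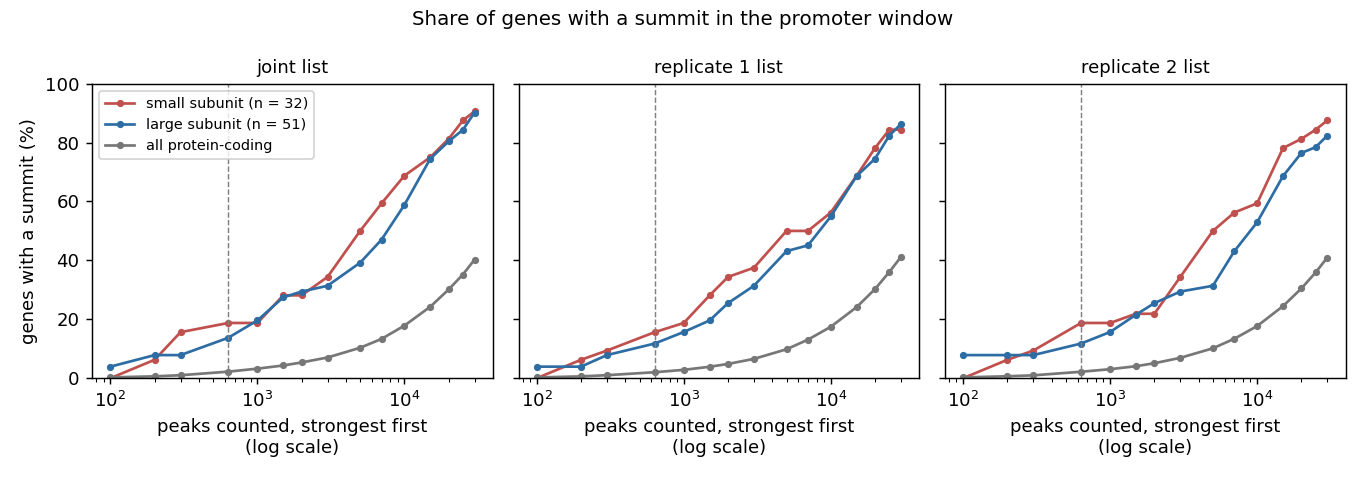
Share of genes with a summit in the promoter window (y axis, percent) as more peaks are counted from the strongest down (x axis, log scale), in the joint list and in each replicate's list. Red is the small subunit, blue the large subunit and grey all protein-coding genes, and the dashed line marks 634 peaks. The subunit curves cross in each list, and both lie above the grey curve from 200 peaks on, up to about 90% at 30000 peaks of the joint list beside 40.2% of all genes.

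All 13 IDR summits lay upstream of the 5′ end, at a median of 291 bp (quartiles 247 and 400 bp). The nearest was at rpl-12, 50 bp upstream, and the farthest at rps-24, 567 bp upstream. The medians of the small and large subunit genes were 335 and 291 bp. Of the 444 protein-coding genes with an IDR summit, 92.3% had it upstream, at a median over all of them of 245.5 bp upstream. In the joint list 66 of 75 genes of the family (88.0%) had the strongest summit upstream, beside 71.0% of all genes. Within the gene and more than 500 bp downstream of the 5′ end, 1 of the 83 genes (1.2%) had an IDR summit, beside 183 (0.916%) of all protein-coding genes. It was rpl-3, with a summit 1634 bp downstream in the 3′ UTR (III, 3869300 to 3869675, signal 93.4, rank 610). That summit had rank 427 in replicate 1 and rank 690 in replicate 2. In the joint list 14 of the 83 (16.9%) had such a summit, beside 36% of all. Genes shorter than 500 bp cannot have one, and gene length was not accounted for.

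**Figure D4:**
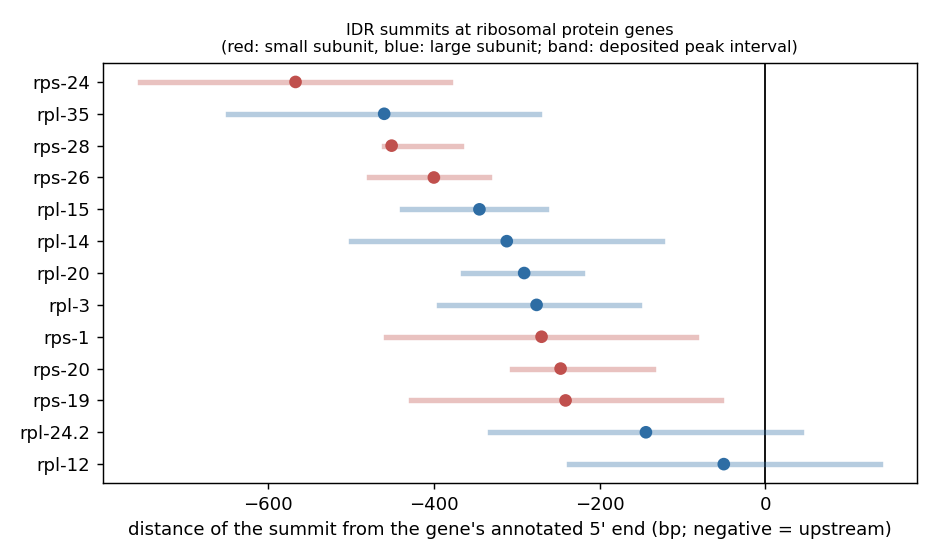
Distance of the IDR summit from the annotated 5′ end (x axis, bp, negative is upstream) for the 13 genes. Points are summits, bands the deposited peak intervals, red the small and blue the large subunit. Every point lies upstream, from 50 bp at rpl-12 to 567 bp at rps-24.

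At most of the 13 peaks a further gene could also be the target. In 8 of them the summit was in the promoter window of another protein-coding gene, and in 7 (53.8%) that gene was on the opposite strand, so that the peak stood between divergent genes. Over all 444 protein-coding genes with an IDR summit the share with such a partner was 50.7%. The partners were K11H12.8 (rpl-15), ekl-4 (rps-20), Y17G9B.5 (rpl-20), ifet-1 (rps-1), which encodes a binding partner of the cap-binding protein, tmem-107 (rps-26), hsr-9 (rps-19) and lin-54 (rpl-12), which encodes the DNA-binding subunit of the DREAM complex. The partner's 5′ end was nearer to the summit for ekl-4 (150 bp), Y17G9B.5 (171 bp), tmem-107 (57 bp) and hsr-9 (204 bp). Counting a summit only for the closest annotated 5′ end left 9 of the 83 genes, 3 of the small and 6 of the large subunit, beside 1.57% of all protein-coding genes. Which gene of a pair a peak serves was not tested.

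Among the weaker peaks, 3 lay between a pair of ribosomal protein genes transcribed away from each other, each pair with 1 gene of the small and 1 of the large subunit. The first was between rps-10 and rpl-24.1, 610 bp apart, at joint rank 1405, with ranks 3437 and 2914 in replicates 1 and 2. The second was between rps-14 and rpl-36, 663 bp apart, at joint rank 3975, with ranks 1636 and 14772. The third was between rps-30 and rpl-39, 499 bp apart, at joint rank 13314 and rank 12403 in replicate 1. In replicate 2 the only summit of these windows, at rank 28972, was elsewhere, 24 bp downstream of the 5′ end of rps-30. None of the 3 was in the IDR list. Each of these peaks counts once for each subunit in the relaxed lists. At rpl-9, one of the genes just below the threshold, the partner across the peak was lpd-7, which RefSeq names a pescadillo homolog, a factor of large subunit assembly, with its 5′ end 241 bp from the summit.

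Genes that carry the same number were compared side by side. The genes rpl-11.1 and rpl-11.2 both encode uL5 and had joint ranks of 12777 and 8750, but rpl-11.1 stood at rank 1237 in replicate 1 and had no summit in replicate 2, while rpl-11.2 was at 13236 and 17444. The genes rpl-25.1 and rpl-25.2 encode uL23, and rpl-25.1 had no summit in any list while rpl-25.2 was at joint rank 23053. Of the pair for L41, rpl-41.2 was at joint rank 1439 (3310 and 2277 in replicates 1 and 2) and rpl-41.1 at 18258 (7611 and 12488), so rpl-41.2 had the stronger peak in each list. The genes rpl-24.1 (eL24) and rpl-24.2 share a number but not a product, and had joint ranks of 1405 and 505. The genes rpl-7 (uL30) and rpl-7A (eL8) are likewise distinct, at joint ranks 5400 and 648, as are rpl-36 (eL36), at 3975, and rpl-36.A (eL42), with no joint summit. How reads that match more than 1 place were handled is not known here, so values of near-identical copies are uncertain.

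Many snoRNA genes, whose products guide the modification of ribosomal RNA, lie in introns of ribosomal protein genes. Of the 346 annotated snoRNA genes, 21 lay within 14 of the 83 genes, all on the strand of the host. None of the 21 had an IDR summit within 200 bp, while 52 of all 346 (15.0%) did. In the joint list 7 of the 21 (33.3%) had one, beside 40.2% of the 346. The strongest was at F53G12.12 in rpl-7, with joint rank 3947 and rank 1060 in replicate 1 but no summit in replicate 2. At B0041.9 in rpl-4 the rank was 1550 in replicate 2, with none in replicate 1. The IDR peak of rpl-15, a gene that hosts a pair of snoRNA genes, lay 560 bp from the nearer of them.

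By chromosome, the 13 genes were 5 of 25 on I, 3 of 20 on III and 5 of 18 on IV. None of the 20 genes on II, V and X had an IDR summit. Over all protein-coding genes the shares were 3.23% on I, 3.79% on III, 1.89% on IV, 1.88% on II, 1.52% on V and 1.76% on X.

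As other genes of the same pathway, a list of genes for ribosome assembly and RNA polymerase I was read, of whose 69 symbols 56 were matched in the annotation. An IDR summit was found at 4 of the 56 (7.14%), beside 2.22% of all protein-coding genes. They were krr-1, a component of the small subunit processome (joint signal 225, rank 128, with ranks 124 and 146 in replicates 1 and 2), pro-1, named for pre-rRNA processing (signal 129, rank 345), exos-9, a subunit of the RNA exosome (signal 100.4, rank 526), and lpd-2 (signal 99.8, rank 534), whose RefSeq name gives no link to ribosomes. The ranks of pro-1 were 195 and 512 in the replicates, those of exos-9 1433 and 478, and those of lpd-2 5266 and 369. The summits at exos-9 and lpd-2 were far from the 5′ end, at -972 and -720 bp. In the joint list 46 of the 56 (82.1%) had a summit, beside 40.2% of all protein-coding genes. The median rank of the 46 was 8442.5, beside 11651.5 over all protein-coding genes with a joint summit. Among the 56, the RefSeq products of imp-3, an intramembrane protease, and ebp-2, a calponin homology protein, also go against the list's name. Neither had an IDR summit, and both are among the 46. The gene fib-1, named after its values were seen, for fibrillarin, the methyltransferase of snoRNA particles, was at joint rank 1497, with rank 28155 in replicate 1 and rank 467 in replicate 2.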

How the data were processed

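ChIP-seq of GMEB-2-GFP was deposited as peak lists for 2 replicates of 1 group. Per the labels and an accompanying text listing, relaxed lists of peaks and background were made for each replicate and for both together, on build ce11, against a control alignment, and the IDR list was derived from them. The authors' signal value of each peak was used only within its list, and the deposited -log10 q value was not used further. The peak caller, the aligner and the cutoff of the IDR step are not stated in the labels or headers. The ce10 lists were not used.

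Genes came from Ensembl 115 (WBcel235, the assembly of ce11), and product names and sequence from RefSeq. A summit, column 2 plus column 10 of the list, was assigned to each gene whose window from 1000 bp upstream to 500 bp downstream of the 5′ end held it. The background for each share was all 19973 nuclear protein-coding genes. Nothing was tested: 1 group allows no contrast, and genes are not replicates. The members, the gene lists and the first 5 words were chosen with earlier results of these data known. Named with values were all members with an IDR summit, the 8 next in the joint list, pairs that share a number or a peak, and members without any summit. Other members were named after their values were seen. The window rule was checked on summits placed at known distances. Calculations used Python 3.11.15, pandas 2.3.3 and SciPy 1.17.1. Alternatives were narrower windows, any transcript's 5′ end, the nearest 5′ end only, any overlap, the stronger part of the list, no peaks at tRNA or snoRNA genes, and each replicate alone.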

Additional observations from a re-analysis of the deposited data

How the results depend on the processing

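The count of 13 genes with an IDR summit (6 small and 7 large subunit) came from 1 joint list. It fell to 7 (3 small and 4 large) with a window from 300 bp upstream to 100 bp downstream, where 1.13% of all protein-coding genes had a summit. With the nearest 5′ end only, 9 remained, and the small subunit count fell to 3 while 6 of the large subunit stayed, beside 1.57% of all genes. With only the 317 strongest IDR peaks 9 remained, and the large subunit count fell to 4 with 5 of the small, beside 1.09% of all genes. Leaving out a replicate gave 11 to 12 genes, 5 to 6 of the small subunit and 6 of the large, beside 2.02% to 2.19% of all genes. With 500 bp allowed on each side of the 5′ end 12 remained (all genes 1.69%), without peaks at tRNA and snoRNA genes 12 (1.89%), with any overlap 13 (2.40%) and with the 5′ end of any transcript 13 (2.39%). The narrower windows, the nearest end rule, the shorter list and the removal of peaks each admit fewer summits or genes by construction. For single replicates, which admit as many peaks as the IDR list, the cause was not tested. Leaving out rpl-24.2 and rpl-42, an alternative added after the data were seen, gave 12. No paired analysis was possible because there was a single group. The depth of the libraries is unknown, so the lists cannot show whether a gene without a summit lacked binding.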
